A study of Mus musculus with 16 samples.

Results

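The livers of mice without Mfap2 were compared with wild-type livers after 8 weeks of carbon tetrachloride (CCl4). The comparison takes 8 of the 16 libraries of the series, which fall into 4 groups of 4 mice. They are 4 libraries labelled Mfap2-/- and 4 labelled Mfap2+/+, each from the frozen liver of a separate mouse, and all 8 mice had received CCl4 intraperitoneally for 8 weeks. The other 8 libraries, from mice of the same genotypes 4 weeks after the end of CCl4, were not used here. The sources used here do not give strain, sex, age, CCl4 dose or the way the Mfap2 allele was made. Livers without CCl4 were not analysed here, so what follows describes the genotypes within injured liver and not the response to CCl4. The table lists 13715 genes, and the 11928 genes that averaged 0.5 FPKM or more were tested. FPKM are fragment counts divided by transcript length and by the size of the library.

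Mfap2 encodes microfibril-associated glycoprotein 1 (MAGP1), a small matrix protein that sits on fibrillin microfibrils and can bind growth factors of the TGF-beta family. The study asked what MAGP1 does in experimental liver fibrosis. CCl4 is turned into a radical by the cytochrome P450 enzyme Cyp2e1 in hepatocytes around the central veins, and these cells die. Repeated dosing activates stellate cells, which become collagen-producing myofibroblasts, and draws monocytes into the liver, which become macrophages that both promote scar and release the proteases that remove it.

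Mfap2 itself (chromosome 4, 141010418 to 141015984 of mm10, plus strand) was listed at 0, 0, 0 and 0 FPKM in knockout mice 1 to 4, against 0.902, 0.972, 1.4 and 3.07 FPKM in wild-type mice 1 to 4. The highest level was that of wild-type mouse 4. The genotypes did not overlap (2-sided exact permutation p = 0.0286, the smallest that 4 mice against 4 can give), and no fold is given against a group listed at 0. All 6 hepatocyte markers were listed in every library, as were those of stellate cells, macrophages, endothelium and bile ducts, so the libraries carry the transcripts of whole liver. Of 5 markers of pancreas, fat and adrenal, Prss2, Cpa1, Adipoq and Cyp11b1 are not among the genes listed. The remaining marker, Cela1, was listed at 7.83 to 11.7 FPKM in knockout livers and 6.55 to 11.2 FPKM in wild-type livers. Albumin (Alb), the main hepatocyte transcript, stood at 27112, 28239.8, 16973 and 24029.5 FPKM in knockout mice 1 to 4, against 46316, 41549.9, 31313 and 28626 FPKM in wild-type mice 1 to 4. Its mean differed by -12862.5 FPKM, lower in the knockout (exact permutation p = 0.0286), and after the scaling described next the genotypes overlapped (exact permutation p = 0.0571). Bulk RNA cannot tell fewer cells of a type from less RNA per cell, for albumin or for any gene below.

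FPKM are shares of a library, and the libraries differed in makeup. The median gene was 0.23 higher in knockout livers on the log2(FPKM + 1) scale, and 82.6% of the genes tested were higher. Each library was therefore also divided by its median ratio to the gene-wise geometric means of the 8 libraries. These size factors were 1.11, 0.998, 1.33 and 1.08 in knockout mice 1 to 4, against 0.780, 0.749, 1.01 and 1.10 in wild-type mice 1 to 4. After this scaling the median gene differed by -0.02 and 46.9% of genes were higher. Below, "as deposited" and "after scaling" name these versions of the data, and a list of genes is to be read beside those medians and shares. The first principal component of the scaled data held 46.1% of the variance, with the knockout mice at 0.25, -0.01, 0.23 and 0.08 and the wild-type mice at -0.34, -0.37, -0.12 and 0.28. Wild-type mouse 4 lay on the side of the knockout mice, beyond all of them, and wild-type mice 1 and 2 lay farthest from them.

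With all 8 mice few genes passed a limma adjusted p of 0.05 over the genes tested. As deposited 1 gene was higher in knockout livers (0.00838% of those tested) and 0 were lower (0%), although 1529 higher (12.8%) and 193 lower (1.62%) had an unadjusted p under 0.05. After scaling 1 gene was higher and 1 lower (0.00838% each), with 669 higher (5.61%) and 600 lower (5.03%) at an unadjusted p under 0.05. In 750 genes (6.29%) all knockout mice lay above all wild-type mice as deposited, and in 73 (0.612%) all lay below. After scaling these counts were 358 (3.00%) and 288 (2.41%), and 300 higher and 56 lower genes kept their side under both. The genes called were Mmp13, higher both ways, and Mfap2, lower after scaling.

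A single wild-type mouse set how many genes passed. With wild-type mouse 4 left out, 1238 genes were higher (10.4%) and 227 lower (1.90%) as deposited, and 107 higher (0.897%) and 208 lower (1.74%) after scaling. Of these, 107 higher and 140 lower genes were called in the same direction both ways. Leaving out any other mouse gave at most 28 higher genes and 4 lower genes, which were reached as deposited without knockout mouse 2. The labels give no reason to set wild-type mouse 4 aside, and the values below are from all 8 mice unless the sentence says otherwise. This mouse stood out in these same data, so results without it are descriptions and no separate support.

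**Figure D1:**
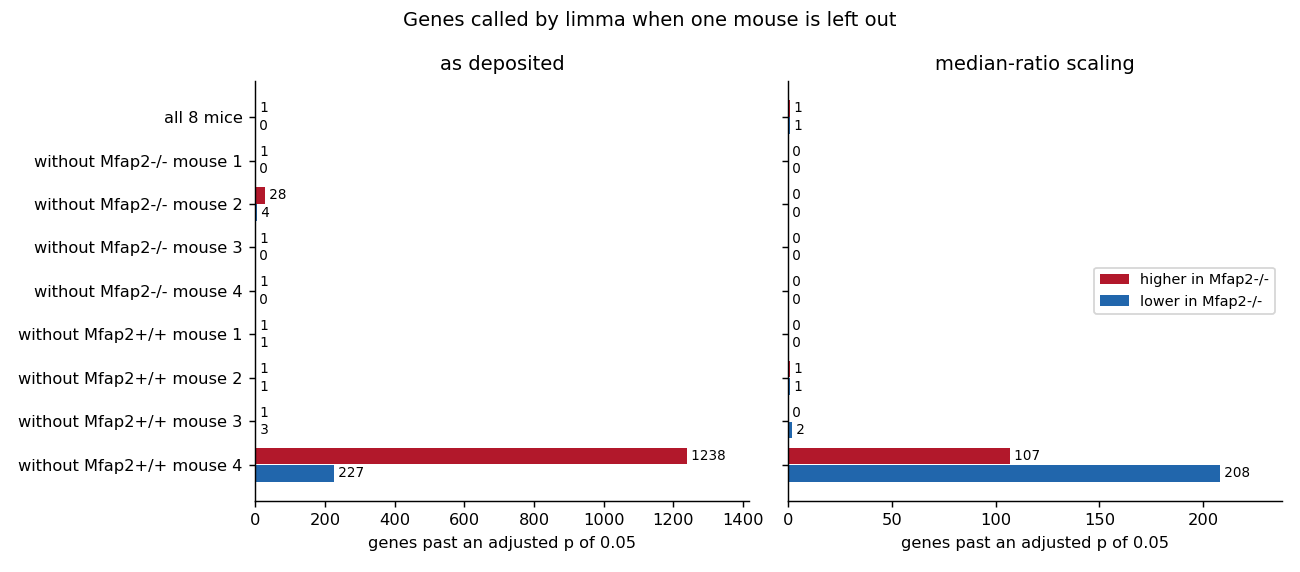
Horizontal bars give the number of genes past a limma adjusted p of 0.05 that were higher (red) or lower (blue) in Mfap2-/- livers, with all 8 mice and with each mouse left out, as deposited on the left and after median-ratio scaling on the right. Without wild-type mouse 4 the counts are 1238 higher and 227 lower as deposited, and 107 higher and 208 lower after scaling.

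Mmp13, the interstitial collagenase that cleaves fibrillar collagen, was the gene that rose most clearly in knockout livers. It stood at 17, 13.1, 21.8 and 17 FPKM in knockout mice 1 to 4, against 3.84, 3.57, 2.05 and 2.3 FPKM in wild-type mice 1 to 4. The lowest knockout mouse was above 3 times the highest wild-type mouse, and wild-type mouse 4 was among the lower wild-type mice here. The means were 17.2 ± 3.55 FPKM in knockout livers and 2.94 ± 0.897 FPKM in wild-type livers (SD, n = 4 each), a ratio of 5.85. The log2 difference was 2.22 ± 0.23 as deposited (SE, limma adjusted p = 8.1e-04) and 1.93 ± 0.24 after scaling (adjusted p = 0.0489). Over 29 other settings its adjusted p ran from 2.2e-06 to 0.448 and it was called in 18, with a log2 difference between 1.77 and 2.54. Leaving out any single mouse kept the call as deposited (adjusted p at most 0.0161). After scaling the call held without wild-type mouse 2 or 4 (adjusted p = 0.0352 and 0.00659) and was lost without any of the other 6 mice (0.0603 to 0.448). It was also lost when the median ratio was taken over the tested genes alone (adjusted p = 0.0528) and after quantile normalization (0.0576). The call was lost too as deposited without knockout mice 3 and 4 (0.316), and when mouse numbers were used as blocks (0.143). The labels do not say whether these numbers pair the mice. The call of Mfap2 after scaling held without wild-type mouse 4 (0.00659) and was lost without any other mouse (0.0691 to 0.448).

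Because Mmp13 is the gene that changed, its promoter is shown, from 250 bases before to 50 bases after the gene start in RefSeq (GRCm38.p6, chr9:7272264-7272563, plus strand), 5′ to 3′. Capitals mark matches to the motifs searched on both strands, TGANTCA, the AP-1 motif, which binds Fos and Jun proteins, and GAAANNGAA, the core of the interferon-stimulated response element.
Mmp13: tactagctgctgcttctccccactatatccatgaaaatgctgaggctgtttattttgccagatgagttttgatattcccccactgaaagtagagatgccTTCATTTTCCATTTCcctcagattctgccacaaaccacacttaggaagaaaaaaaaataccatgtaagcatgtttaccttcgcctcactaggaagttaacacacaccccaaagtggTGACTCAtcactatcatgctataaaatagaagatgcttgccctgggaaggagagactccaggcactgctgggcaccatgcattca
The AP-1 match starts 35 bases before the gene start, and TGANTCA matches there on both strands. The earlier capitals hold 2 overlapping interferon-element cores on the minus strand, 151 and 145 bases before the start. Of all 32851 promoters in the RefSeq table, 7.81% hold the AP-1 motif and 8.56% the interferon-element core, against 5.59% and 7.5% of the promoters of tested genes. A match describes the letters and not a site in use. Of the AP-1 genes, Fos stood at 11.4, 5.0, 8.7 and 3.58 FPKM in the knockout mice and 2.59, 1.56, 3.27 and 6.69 FPKM in the wild-type mice (limma adjusted p = 0.318 as deposited and 0.51 after scaling). In Fos wild-type mouse 4 lay within the knockout range. A link between Fos and Mmp13 was not tested.

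**Figure D2:**
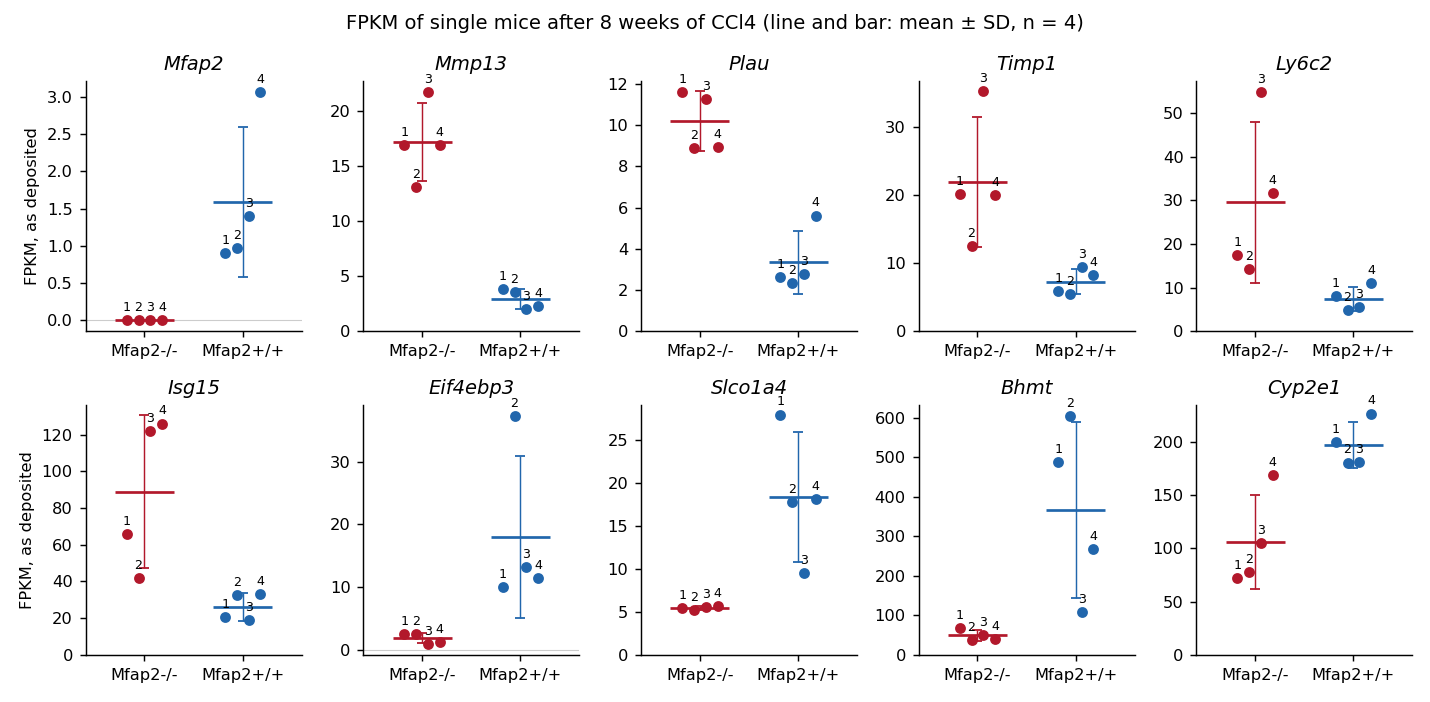
FPKM as deposited of 10 genes in each mouse, with Mfap2-/- mice (red) left of Mfap2+/+ mice (blue), each point numbered by mouse and the line and bar giving the mean ± SD of 4 mice. As deposited the genotypes do not overlap in any of the 10 genes. Most of these genes were chosen for lack of overlap, so this is no separate support. Of all tested genes 6.29% were higher and 0.612% lower without overlap as deposited. After scaling the genotypes overlap in Isg15. Wild-type mouse 4 is the wild-type mouse nearest to the knockout mice in Plau (5.61 FPKM), Ly6c2 (11 FPKM) and Isg15 (32.9 FPKM).

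Beside Mmp13, 11 genes stood out as higher by the smallest p after scaling among those without overlap both ways and with a mean of at least 2 FPKM. Apart from Mmp13, 0 of these 12 passed the adjusted threshold with all 8 mice. Plau, the urokinase that activates plasminogen on cell surfaces, stood at 11.6, 8.9, 11.3 and 8.95 FPKM in knockout mice 1 to 4, against 2.62, 2.36, 2.77 and 5.61 FPKM in wild-type mice 1 to 4. Its log2 difference was 1.41 ± 0.24 as deposited (SE, limma adjusted p = 0.0561) and 1.15 ± 0.17 after scaling (adjusted p = 0.126). Timp1, a secreted inhibitor of such proteases as Mmp13, stood at 20.1, 12.5, 35.2 and 20.0 FPKM in the knockout mice and 5.92, 5.52, 9.46 and 8.19 FPKM in the wild-type mice, a difference of 1.41 as deposited and 1.12 after scaling. A collagenase, a plasminogen activator and an inhibitor of metalloproteinases thus stood higher side by side. Ctsj, a cathepsin gene of rodents, was lowest in wild-type mouse 1 and stood at 6.05, 3.73, 5.49 and 4.72 FPKM in the knockout mice and 0.118, 0.829, 0.698 and 2.75 FPKM in the wild-type mice.

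The rest of these genes belong mainly to myeloid cells. Slamf9, a SLAM family receptor of macrophages and dendritic cells, stood at 13.6, 14.9, 26.5 and 18.1 FPKM in knockout mice 1 to 4, against 5.51, 4.64, 7.81 and 6.1 FPKM in wild-type mice 1 to 4. Cd180, a Toll-like receptor homologue that controls lipopolysaccharide responses, stood at 9.08, 7.04, 13.3 and 8.7 FPKM in the knockout mice and 3.49, 3.01, 3.47 and 4.13 FPKM in the wild-type mice. Its adjusted p was 0.0723 as deposited and 0.153 after scaling, by limma. Coro1a, a coronin of the leukocyte actin cortex, averaged 49.4 ± 5.94 FPKM in knockout livers and 22.2 ± 5.15 FPKM in wild-type livers. Ccr1, a receptor for inflammatory CC chemokines, averaged 7.41 ± 1.38 FPKM in knockout livers and 2.75 ± 1.57 FPKM in wild-type livers. Scimp, a Toll-like receptor adaptor of antigen-presenting cells, and Slc37a2, a sugar phosphate exchanger of macrophages, had log2 differences after scaling of 0.82 and 0.88. Ch25h, which makes 25-hydroxycholesterol in activated macrophages, stood at 5.62, 2.6, 7.39 and 3.01 FPKM in the knockout mice and 0.315, 0.595, 1.67 and 1.5 FPKM in the wild-type mice. Frzb, a secreted Wnt antagonist, stood at 8.04, 4.69, 10.7 and 6.17 FPKM in the knockout mice and 2.27, 1.79, 2.69 and 3.07 FPKM in the wild-type mice. In all 12 the genotypes kept apart, and wild-type mouse 4 was the nearest wild-type mouse in 8 of them, Plau, Cd180, Frzb, Scimp, Slc37a2, Coro1a, Ccr1 and Ctsj. These 12 genes, Mmp13 among them, passed both as deposited and after scaling when wild-type mouse 4 was left out (all genes 10.4% and 0.897%). They were chosen from these same mice by small p and lack of overlap, so this count is no separate support.

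The 12 genes chosen as lower in the same way were mainly hepatocyte enzymes and transporters, and 0 of them passed with all 8 mice. Eif4ebp3, a repressor of cap-dependent translation, stood at 2.55, 2.64, 1.06 and 1.35 FPKM in knockout mice 1 to 4, against 10.1, 37.2, 13.2 and 11.5 FPKM in wild-type mice 1 to 4. Wild-type mouse 2 was far above the rest, and the highest knockout mouse was below every wild-type mouse. The log2 difference was -2.56 ± 0.36 as deposited (SE, limma adjusted p = 0.0561) and -2.80 ± 0.45 after scaling (adjusted p = 0.197), and it was called in 10 of 29 other settings. Slco1a4, a sinusoidal organic anion transporter, was almost level across knockout livers and stood at 5.43, 5.18, 5.53 and 5.65 FPKM in knockout mice 1 to 4, against 27.9, 17.7, 9.53 and 18.1 FPKM in wild-type mice 1 to 4. Its difference was -1.50 ± 0.26 as deposited (SE, limma adjusted p = 0.0605) and -1.78 ± 0.32 after scaling (adjusted p = 0.23). Akr1d1, the reductase that saturates the sterol ring in bile acid synthesis, stood at 3.61, 3.86, 3.74 and 3.08 FPKM in the knockout mice and 20.2, 18.2, 9.65 and 7.64 FPKM in the wild-type mice.

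Bhmt, which methylates homocysteine with betaine, stood at 69.3, 38, 49.7 and 40.4 FPKM in knockout mice 1 to 4, against 489, 605, 109 and 267 FPKM in wild-type mice 1 to 4. Knockout livers averaged 0.134 of the wild-type mean, with wild-type mice 1 and 2 highest, and the adjusted p was 0.082 as deposited and 0.23 after scaling (limma). Gm5096 and Gm4737 are near copies of Bhmt and Ahcy, 99.4% and 99.7% identical over 1869 and 2086 aligned bases, so reads may have been split between copies and both are uncertain. Gm5096 averaged 5.45 ± 1.65 FPKM in knockout livers and 42.1 ± 26.1 FPKM in wild-type livers, and Gm4737 averaged 80.2 ± 24.8 FPKM in knockout livers and 166 ± 30.0 FPKM in wild-type livers. Ahcy, which forms homocysteine in that cycle, stood at 305, 334, 258 and 286 FPKM in the knockout mice and 619, 513, 469 and 566 FPKM in the wild-type mice and shares this doubt. Pnpla2, the lipase that starts the breakdown of stored triglyceride, stood at 37.8, 34.4, 29.3 and 28.3 FPKM in the knockout mice and 56, 53.8, 45.9 and 70.1 FPKM in the wild-type mice. Car14, a membrane carbonic anhydrase, averaged 3.82 ± 1.41 FPKM in knockout livers and 10.5 ± 3.31 FPKM in wild-type livers. Slc16a7, a monocarboxylate carrier, and Abca6, an ABC transporter, differed by -0.84 and -0.73 after scaling, and less as deposited (-0.56 and -0.44). When wild-type mouse 4 was left out, 8 of these 12 lower genes passed both ways (all genes 1.90% as deposited and 1.74% after scaling). The 12 were chosen from these same mice by small p and lack of overlap, so this count is no separate support. Slc16a7 and Abca6 passed after scaling (limma adjusted p = 0.0285 and 0.041) but not as deposited (0.0835 and 0.194). Bhmt and Gm5096 passed neither as deposited (0.0566 and 0.0599) nor after scaling (0.054 and 0.0809).

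**Figure D3:**
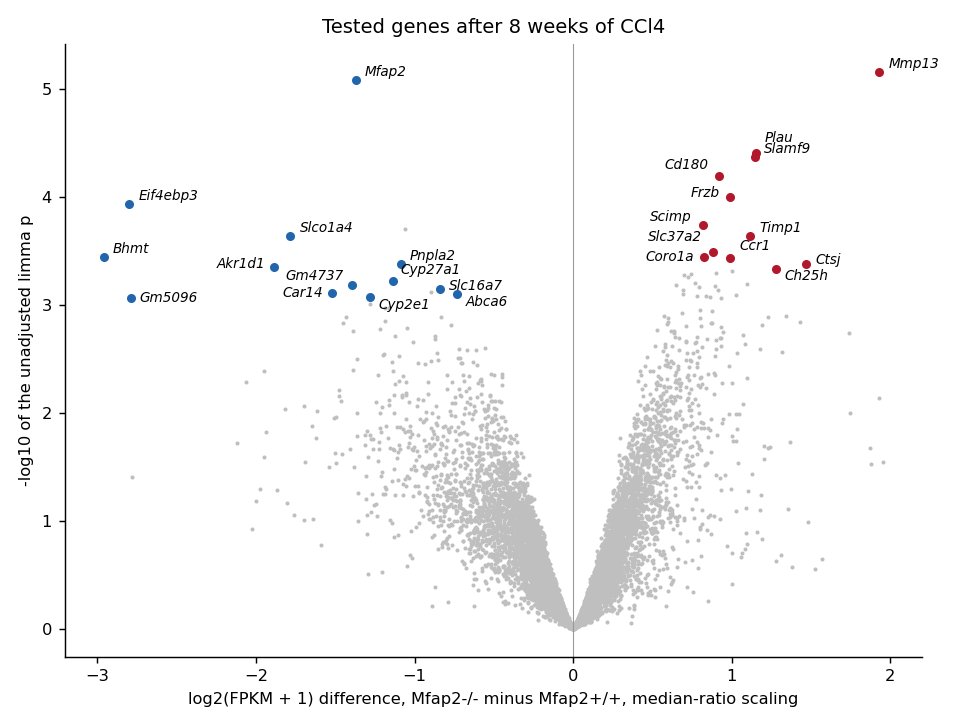
Each grey point is a tested gene, with the log2(FPKM + 1) difference after median-ratio scaling, Mfap2-/- minus Mfap2+/+, on the x axis and -log10 of the unadjusted limma p on the y axis, and the genes named by rule are red where higher and blue where lower. Mmp13 at 1.93 and Mfap2 at -1.37 are the genes with an adjusted p under 0.05.

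Lists of genes were then read, each by its counts and its median beside the same for all genes tested. Of each list the members with the smallest p as deposited are named, together with defining genes, so the named members do not stand for the whole list. Collagens came first, since they make up the scar. Of 14 fibrillar and network collagen genes, 14 were higher as deposited and 13 after scaling, with a median difference of 0.67 as deposited and 0.42 after scaling. In 8 the genotypes did not overlap as deposited, and in 5 after scaling, against 6.29% and 3.00% of all genes. With all mice 0 passed, although 8 as deposited and 7 after scaling had an unadjusted p under 0.05 (limma), against 12.8% and 5.61% of all genes. Without wild-type mouse 4, 8 passed as deposited and 0 after scaling, against 10.4% and 0.897% of all genes. Col1a1, a chain of type I collagen, the main scar collagen, stood at 33, 18.7, 44.5 and 19 FPKM in the knockout mice and 11.7, 12.9, 15.3 and 14.5 FPKM in the wild-type mice. Col3a1, the chain of type III collagen, stood at 45.9, 35.9, 68.6 and 42.3 FPKM in the knockout mice and 29.2, 25.2, 20.1 and 19.9 FPKM in the wild-type mice. As deposited, knockout mouse 3 was highest in both genes and no knockout mouse lay below a wild-type mouse. Knockout mice 2 and 4 stood close to the wild-type mice in Col1a1. After scaling the genotypes overlapped in Col3a1 but not in Col1a1. Col15a1, a collagen that joins basement membranes to the interstitium, averaged 4.78 ± 1.83 FPKM in knockout livers and 1.75 ± 0.558 FPKM in wild-type livers. Col5a1, which sets the width of collagen fibrils, averaged 5.26 ± 2.02 FPKM in knockout livers and 2.33 ± 0.256 FPKM in wild-type livers.

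The other matrix lists stood closer to the median gene. For basement membrane genes 13 of 14 were higher as deposited and 12 after scaling (medians 0.46 as deposited and 0.25 after scaling). Col4a1 and Col4a2, the chains of the collagen IV network, differed by 0.57 and 0.52 after scaling, and Lamb1, a laminin chain, by 0.36. For enzymes of collagen folding and cross-linking 16 of 17 were higher as deposited and 13 after scaling (0.57 as deposited and 0.28 after scaling). Serpinh1, the collagen chaperone, stood at 53, 44, 73.3 and 41 FPKM in the knockout mice and 15, 27.5, 28.3 and 13.8 FPKM in the wild-type mice. Loxl2, a lysyl oxidase that cross-links collagen, averaged 6.14 ± 3.05 FPKM in knockout livers and 2.35 ± 0.436 FPKM in wild-type livers, and Fkbp10, a prolyl isomerase of procollagen, averaged 5.24 ± 1.53 FPKM in knockout livers and 2.41 ± 0.271 FPKM in wild-type livers. Of the whole list of matrix proteases and their inhibitors, 25 of 26 were higher as deposited and 22 after scaling (0.58 as deposited and 0.27 after scaling), and Mmp13 was the member that passed. With wild-type mouse 4 left out, 13 passed as deposited and 7 after scaling (all genes 10.4% and 0.897%). With wild-type mice 1 and 2 left out the median of this list was 0.23 as deposited and 0.16 after scaling, beside 0.04 and -0.03 for all genes.

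The genes of the structure that MAGP1 belongs to were split after scaling. Of 14 tested genes of microfibrils and elastic fibres, 14 were higher as deposited and 8 after scaling, and the median was 0.40 as deposited and 0.16 after scaling. Fbn1, the fibrillin to which MAGP1 binds, stood at 2.41, 1.44, 4.13 and 1.47 FPKM in knockout mice 1 to 4, against 0.79, 0.86, 0.709 and 1.61 FPKM in wild-type mice 1 to 4. Wild-type mouse 4 lay above knockout mice 2 and 4, and the adjusted p was 0.22 and 0.393 by limma. Emilin1, an elastic fibre glycoprotein that restrains TGF-beta processing, did not overlap between genotypes and averaged 21.3 ± 4.39 FPKM in knockout livers and 11.1 ± 2.43 FPKM in wild-type livers. Efemp2, the fibulin needed for elastic fibre assembly, averaged 10.8 ± 3.79 FPKM in knockout livers and 5.57 ± 1.09 FPKM in wild-type livers.

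Genes of contractile myofibroblasts had the highest median of the mesenchymal lists. All 19 tested were higher as deposited and 19 after scaling, with medians of 0.89 as deposited and 0.60 after scaling, and 13 and 7 of them had an unadjusted p under 0.05 (12.8% and 5.61% of all genes). Acta2, the smooth muscle actin of activated stellate cells, stood at 21.6, 25, 48.9 and 16.8 FPKM in the knockout mice and 7.2, 19.2, 12.3 and 2.77 FPKM in the wild-type mice. Knockout mouse 3 was highest and wild-type mouse 4 lowest, and wild-type mouse 2 lay above knockout mouse 4. Sparc, a collagen-binding matricellular protein, averaged 145 ± 47.7 FPKM in knockout livers and 65.7 ± 15.1 FPKM in wild-type livers. Cnn2 and Flna, which bind actin, differed by 0.90 and 0.78 after scaling. The summed FPKM of 6 defining markers of stellate cells and myofibroblasts ran from 87.7 to 209 in knockout livers, against 36.4 to 72.2 in wild-type livers, and none of the 6 was at 0 in any library. Without wild-type mouse 4, 13 of the list passed as deposited and 3 after scaling (all genes 10.4% and 0.897%).

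Markers of quiescent stellate cells, which store vitamin A, stood nearer to the median gene. Of 14, 11 were higher as deposited and 7 after scaling, with a median of 0.33 as deposited and 0.02 after scaling. Hgf, the growth factor that stellate cells make for hepatocytes, stood at 3.16, 2.84, 5.1 and 2.91 FPKM in the knockout mice and 1.26, 1.14, 1.58 and 2.46 FPKM in the wild-type mice. Lrat, which esterifies retinol, averaged 5.96 ± 0.835 FPKM in knockout livers and 3.78 ± 1.27 FPKM in wild-type livers, and Pth1r, a hormone receptor of these cells, averaged 6.4 ± 0.811 FPKM in knockout livers and 4.02 ± 0.502 FPKM in wild-type livers.

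The TGF-beta and BMP list, the pathway with which MAGP1 is linked, stood nearer to the background than the collagens, with 27 of 29 genes higher as deposited, 24 after scaling and medians of 0.42 as deposited and 0.14 after scaling. Tgfb1, the profibrotic ligand, stood at 26.8, 21.8, 29.5 and 15.2 FPKM in the knockout mice and 9.57, 11.5, 11.1 and 15.6 FPKM in the wild-type mice, so that knockout mouse 4 lay among the wild-type mice. Tgfbi, a matrix target of the pathway, averaged 42.9 ± 11 FPKM in knockout livers and 24.9 ± 5.28 FPKM in wild-type livers, and Smad6, an inhibitory Smad, averaged 4.07 ± 1.04 FPKM in knockout livers and 2.56 ± 0.391 FPKM in wild-type livers. With all mice 0 of the list passed, and 9 as deposited and 2 after scaling had an unadjusted p under 0.05 on the higher side (limma), against 12.8% and 5.61% of all genes.

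Genes of recruited monocytes and macrophages had the highest median of the immune lists. All 20 were higher both ways, with medians of 0.95 as deposited and 0.66 after scaling. The genotypes did not overlap in 8 as deposited and in 6 after scaling, against 6.29% and 3.00% of all genes. After scaling 11 had an unadjusted p under 0.05, against 5.61% of all genes. Ly6c2, the surface marker of inflammatory monocytes, stood at 17.5, 14.2, 54.8 and 31.6 FPKM in knockout mice 1 to 4, against 8.06, 4.93, 5.58 and 11 FPKM in wild-type mice 1 to 4. Knockout mice 3 and 4 were highest. S100a4, a calcium-binding protein of motile myeloid and mesenchymal cells, stood at 12.3, 18.1, 21.7 and 17.9 FPKM in the knockout mice and 4.85, 7.26, 4.27 and 8.24 FPKM in the wild-type mice. In both genes every knockout mouse lay above every wild-type mouse. Plac8, a small protein high in monocytes, averaged 87.4 ± 24.4 FPKM in knockout livers and 35.8 ± 6.53 FPKM in wild-type livers. Fcgr1, the high-affinity Fc receptor, averaged 22.1 ± 6.14 FPKM in knockout livers and 9.19 ± 2.36 FPKM in wild-type livers. By mouse, the mean of the list after scaling, taken from the mean of the 8 mice, was 0.47, 0.26, 0.56 and 0.11 log2 units in the knockout and -0.47, -0.39, -0.58 and 0.03 in the wild type. The groups did not overlap, and wild-type mouse 4 came nearest. The summed FPKM of 5 defining macrophage markers ran from 582 to 1339 in knockout livers, against 407 to 733 in wild-type livers, so there they overlapped.

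Genes of scar-associated macrophages stood on the same side with a smaller median. Of 16 such markers 15 were higher as deposited and 14 after scaling (0.74 as deposited and 0.43 after scaling). Mmp12, which degrades elastin, stood at 106, 78.6, 82 and 46.2 FPKM in the knockout mice and 27.2, 23, 17.2 and 42.3 FPKM in the wild-type mice. Cd9, a tetraspanin of these macrophages, averaged 120.1 ± 21.8 FPKM in knockout livers and 65.4 ± 24.5 FPKM in wild-type livers. Lpl, lipoprotein lipase, averaged 90.3 ± 22.1 FPKM in knockout livers and 52.7 ± 10.6 FPKM in wild-type livers. Trem2, the receptor that defines these cells, stood at 64.1, 54.3, 51 and 28.6 FPKM in the knockout mice and 24.7, 20.9, 27 and 45.7 FPKM in the wild-type mice, and wild-type mouse 4 lay above knockout mouse 4. Genes of Kupffer cells, the resident macrophages, were split. Of 10 markers 7 were higher as deposited and 4 after scaling, and their median was 0.26 as deposited and -0.06 after scaling. Clec4f, a receptor found on Kupffer cells, averaged 64.1 ± 9.08 FPKM in knockout livers and 46.5 ± 10.7 FPKM in wild-type livers. Cd5l, a secreted scavenger receptor protein of macrophages, averaged 211 ± 59.4 FPKM in knockout livers and 143 ± 50.9 FPKM in wild-type livers. Folr2, a folate receptor, averaged 38.5 ± 9.9 FPKM in knockout livers and 23.1 ± 6.05 FPKM in wild-type livers. These named members stood higher, and the list as a whole did not. By mouse after scaling the list lay at 0.01, 0.17, -0.20 and -0.30 log2 units in the knockout mice and 0.71, 0.61, -0.40 and -0.59 in the wild-type mice. The wild-type mice split into mice 1 and 2, which were highest, and mice 3 and 4, which were lowest.

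Chemokine genes stood higher for 22 of 23 as deposited and 17 after scaling (0.53 as deposited and 0.36 after scaling). Ccl7, which attracts monocytes, stood at 18.5, 8.74, 39.1 and 34.9 FPKM in knockout mice 1 to 4, against 5.4, 4.79, 2.32 and 6.96 FPKM in wild-type mice 1 to 4. Its log2 difference was 2.03 ± 0.44 as deposited (SE, limma adjusted p = 0.111) and 1.74 ± 0.41 after scaling (adjusted p = 0.276). Ccl2, its close relative, stood at 22.8, 10.7, 28.9 and 17.3 FPKM in the knockout mice and 3.31, 7.22, 5.59 and 15.3 FPKM in the wild-type mice, so that wild-type mouse 4 lay above knockout mouse 2. Ccl4, a chemokine of macrophages, averaged 8.3 ± 2.77 FPKM in knockout livers and 3.4 ± 0.753 FPKM in wild-type livers. Cxcl14, an epithelial and stromal chemokine, averaged 15 ± 3.35 FPKM in knockout livers and 6.0 ± 3.49 FPKM in wild-type livers. Il1rn, the interleukin-1 receptor antagonist, stood at 50.5, 34.9, 57.6 and 36.6 FPKM in the knockout mice and 13.8, 14.2, 14.9 and 34.6 FPKM in the wild-type mice. In MHC class II presentation 11 of 11 genes were higher both ways with smaller differences (0.49 as deposited and 0.26 after scaling), among them the co-stimulatory molecule Cd86 at 0.45, H2-DMa, which loads peptide, at 0.28 and the protease Ctss at 0.55 after scaling.

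After scaling, neutrophil and B cell lists lay near the median gene, and the T and NK cell list somewhat above it. Of 16 T and NK cell genes 8 were tested. The medians were 0.32 as deposited and 0.05 after scaling for 13 neutrophil genes, 0.31 as deposited and 0.14 after scaling for 8 genes of T and NK cells, and 0.19 as deposited and 0.04 after scaling for 7 genes of B and plasma cells. Neutrophil genes were high in a single mouse of each genotype, at 0.79, 0.0028, -0.48 and -0.08 log2 units in the knockout mice and -0.15, -0.35, -0.53 and 0.80 in the wild-type mice. Knockout mouse 1 and wild-type mouse 4 were the high mice. The defining markers overlapped too, at 32.6 to 105 FPKM summed over 3 neutrophil markers in knockout livers and 20.2 to 99.5 FPKM in wild-type livers, where Ly6g was at 0 in 2 mice. Csf3r, the receptor for granulocyte colony-stimulating factor, stood at 5.9, 4.64, 7.71 and 3.48 FPKM in the knockout mice and 2.14, 3.01, 3.3 and 3.73 FPKM in the wild-type mice. Mmp9, gelatinase B, stood at 2.89, 1.31, 2.26 and 1.3 FPKM in the knockout mice and 0.588, 0.511, 0.596 and 2.16 FPKM in the wild-type mice. Cxcr2, the neutrophil chemokine receptor, stood at 2.2, 0.816, 1.88 and 0.791 FPKM in the knockout mice and 0.638, 0.391, 0.512 and 1.24 FPKM in the wild-type mice. In each of these 3 genes the genotypes overlapped. Nkg7, a granule protein of killer cells, averaged 2.53 ± 0.595 FPKM in knockout livers and 1.45 ± 0.324 FPKM in wild-type livers, and Gzmb and Klrb1c, of cytotoxic cells, differed by 0.21 and 0.30 after scaling. Cd22, a B cell lectin, averaged 3.05 ± 0.873 FPKM in knockout livers and 1.47 ± 0.451 FPKM in wild-type livers, and Cd79b, of the B cell receptor, differed by 0.22. The defining markers of T and NK cells summed to 2.43 to 4.09 FPKM in knockout livers and 1.37 to 2.31 FPKM in wild-type livers. As deposited these sums did not overlap. Those of B cells summed to 1.24 to 2.38 FPKM in knockout livers and 0.502 to 2.39 FPKM in wild-type livers, and overlapped. The low levels of lymphocyte genes limit their log2(FPKM + 1) differences, which understate changes of genes near 1 FPKM.

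Interferon response genes were higher in 33 of 33 cases as deposited and 32 after scaling, with medians of 0.87 as deposited and 0.56 after scaling, and 28 and 15 had an unadjusted p under 0.05, against 12.8% and 5.61% of all genes. The genotypes did not overlap in 13 of these genes as deposited and in 2 after scaling, against 6.29% and 3.00% of all genes. Knockout mice 3 and 4 stood highest. After scaling, the list lay at -0.0038, -0.16, 0.62 and 0.76 log2 units in knockout mice 1 to 4, against -0.06, -0.01, -0.65 and -0.49 in wild-type mice 1 to 4, so knockout mouse 1 lay level with wild-type mice 1 and 2, and knockout mouse 2 lay below them. As deposited the knockout mice lay at 0.12, -0.17, 0.99 and 0.86 and the wild-type mice at -0.39, -0.39, -0.64 and -0.38, without overlap. Isg15, a ubiquitin-like protein that interferon induces, stood at 65.7, 41.8, 122 and 126 FPKM in knockout mice 1 to 4, against 20.5, 32.6, 18.9 and 32.9 FPKM in wild-type mice 1 to 4. Oas1a, an antiviral oligoadenylate synthetase, stood at 27.8, 22.2, 39.7 and 35.9 FPKM in the knockout mice and 16.1, 13.7, 9.65 and 14.1 FPKM in the wild-type mice. Its relative Oasl2 stood at 21.9, 15.7, 42.9 and 29.6 FPKM in the knockout mice and 9.63, 7.84, 8.68 and 13.2 FPKM in the wild-type mice. In these 3 genes every knockout mouse lay above every wild-type mouse as deposited. After scaling this held for Oas1a and Oasl2, and the genotypes overlapped in Isg15. Their log2 differences after scaling were 1.31 ± 0.34, 0.85 ± 0.24 and 1.03 ± 0.22 for Isg15, Oas1a and Oasl2 (SE, limma adjusted p = 0.288, 0.309 and 0.23). Without knockout mice 3 and 4 the list median was 0.43 as deposited, against 0.15 for all genes, and without wild-type mouse 4 after scaling it was 0.56. In that setting 11 of the list passed as deposited and 1 after scaling, against 10.4% and 0.897% of all genes.

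The promoters of these genes are shown because interferon acts through a known promoter element, in the window used for Mmp13, with capitals marking GAAANNGAA on either strand (RefSeq, GRCm38.p6, chr4:156200769-156201068 minus, chr5:120907476-120907775 minus and chr5:114896684-114896983 plus strand).
Isg15: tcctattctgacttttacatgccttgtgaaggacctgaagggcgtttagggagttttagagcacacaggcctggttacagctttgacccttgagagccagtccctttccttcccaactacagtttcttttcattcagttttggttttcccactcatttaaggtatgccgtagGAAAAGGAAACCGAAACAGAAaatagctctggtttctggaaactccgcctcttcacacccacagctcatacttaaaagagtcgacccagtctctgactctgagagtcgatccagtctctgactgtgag
Oas1a: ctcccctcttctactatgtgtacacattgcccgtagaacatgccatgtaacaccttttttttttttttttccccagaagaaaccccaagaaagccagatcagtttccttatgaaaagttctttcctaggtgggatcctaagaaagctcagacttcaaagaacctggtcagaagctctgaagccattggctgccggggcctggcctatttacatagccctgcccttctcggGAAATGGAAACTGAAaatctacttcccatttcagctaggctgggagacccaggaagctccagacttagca
Oasl2: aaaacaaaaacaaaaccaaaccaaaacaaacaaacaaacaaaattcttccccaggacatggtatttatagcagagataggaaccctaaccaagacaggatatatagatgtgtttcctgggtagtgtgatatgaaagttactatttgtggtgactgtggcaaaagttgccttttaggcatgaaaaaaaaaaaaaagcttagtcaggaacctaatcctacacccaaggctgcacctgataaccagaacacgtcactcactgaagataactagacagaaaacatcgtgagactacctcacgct
Isg15 holds 3 overlapping matches that start 78, 72 and 66 bases before the gene start, and Oas1a holds 2 that start 20 and 14 bases before it. Oasl2 holds none in these letters. The part of the element in the differences of these genes was not tested. Of the 29 promoters in the table that belong to genes of the list, 17 hold the core (58.6%), against 7.5% of the promoters of tested genes. The AP-1 motif is in 7 of the 29 (24.1%).

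Endothelial and bile duct lists stood above the median gene, by less than the monocyte and myofibroblast lists. Of all genes 82.6% were higher as deposited and 46.9% after scaling. As deposited 7 of 15 sinusoidal, 7 of 18 vascular and 3 of 14 ductular genes had an unadjusted limma p under 0.05 (all genes 12.8%). After scaling 2, 1 and 2 did (5.61%). The genotypes did not overlap in 3, 3 and 1 as deposited and in 1, 0 and 1 after scaling (6.29% and 3.00%). For sinusoidal endothelium 15 of 15 genes were higher as deposited and 14 after scaling (0.44 as deposited and 0.16 after scaling), and for other vascular genes 18 of 18 and 16 (0.44 as deposited and 0.20 after scaling). Fcgr2b, the scavenging Fc receptor of the sinusoid, averaged 31.2 ± 7.71 FPKM in knockout livers and 18.4 ± 4.9 FPKM in wild-type livers. Plxnc1 and Maf differed by 0.58 and 0.44 after scaling. Tek and Tie1, receptors of the angiopoietin system, differed by 0.49 and 0.36, and Pecam1 by 0.29. In the ductular list 13 of 14 were higher both ways (0.48 as deposited and 0.21 after scaling). Prom1, a marker of ductular progenitors, stood at 4.5, 4.3, 5.61 and 4.63 FPKM in the knockout mice and 2.98, 2.89, 1.94 and 1.55 FPKM in the wild-type mice, and the genotypes did not overlap. The 4 defining bile duct markers did overlap when summed, at 11.3 to 23.6 FPKM in knockout livers and 5.16 to 25.1 FPKM in wild-type livers. Muc1, a mucin of bile ducts, averaged 1.59 ± 0.571 FPKM in knockout livers and 0.568 ± 0.525 FPKM in wild-type livers. Spp1, osteopontin, which ducts and macrophages both secrete, stood at 249, 178, 461 and 433 FPKM in the knockout mice and 109, 157, 271 and 163 FPKM in the wild-type mice. With wild-type mice 1 and 2 left out the ductular median after scaling was -0.10, against -0.03 for all genes, so its side rested on those mice. The endothelial markers, 4 in all, summed to 26.0 to 44.9 FPKM in knockout livers and 15.4 to 30.4 FPKM in wild-type livers.

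**Figure D4:**
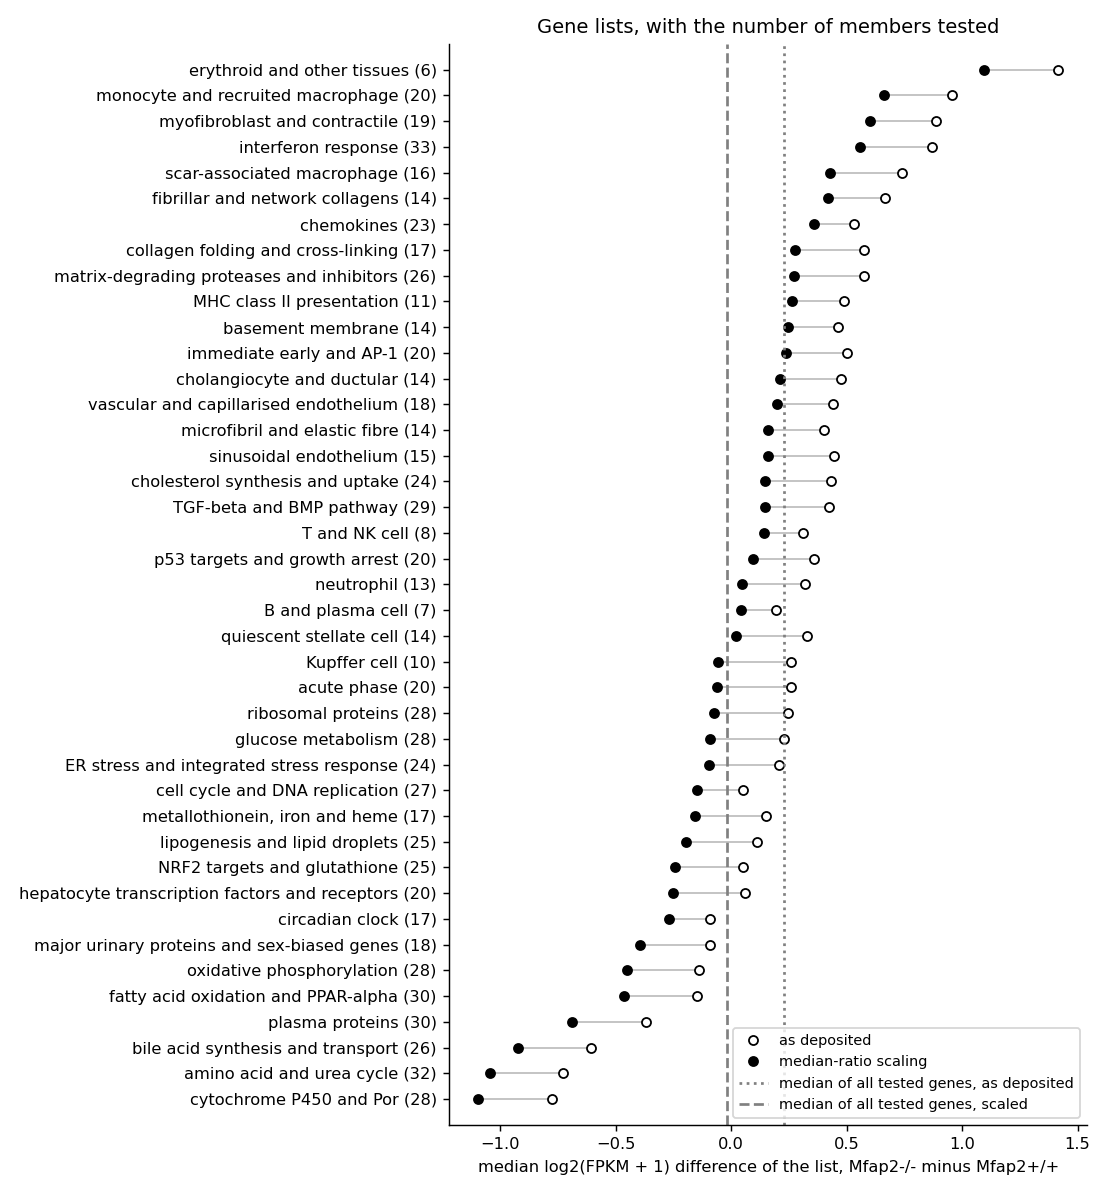
For each of 41 gene lists, with the number of tested members in parentheses, the median log2(FPKM + 1) difference, Mfap2-/- minus Mfap2+/+, is given as deposited (open circles) and after median-ratio scaling (filled circles), beside the medians of all tested genes (vertical lines at 0.23 and -0.02). The list of erythroid and other tissue genes lies highest, at 1.42 as deposited and 1.10 after scaling. Monocyte, myofibroblast and interferon lists lie at 0.56 to 0.66 after scaling, and P450, amino acid and bile acid lists at -1.09 to -0.92.

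Genes of hepatocyte metabolism stood on the other side. Cytochrome P450 genes and Por were lower in 27 of 28 cases as deposited and 28 after scaling, with medians of -0.78 as deposited and -1.09 after scaling. Of them 13 as deposited and 19 after scaling had an unadjusted p under 0.05 on the lower side, against 1.62% and 5.03% of all genes. Cyp2e1, which activates CCl4, stood at 72.2, 78.3, 105 and 169 FPKM in knockout mice 1 to 4, against 199.7, 181, 182 and 227 FPKM in wild-type mice 1 to 4. Every knockout mouse was below every wild-type mouse, with knockout mouse 4 nearest. Por, the reductase that feeds electrons to these enzymes, stood at 173, 182, 112 and 129 FPKM in the knockout mice and 346, 218, 257 and 339 FPKM in the wild-type mice, a difference of -0.96 ± 0.25 as deposited (SE, limma adjusted p = 0.124) and -1.28 ± 0.29 after scaling (adjusted p = 0.254). Cyp2c54 averaged 37.3 ± 13.8 FPKM in knockout livers and 82.1 ± 22.1 FPKM in wild-type livers. Cyp2c68 averaged 77.7 ± 15.3 FPKM in knockout livers and 144 ± 31.5 FPKM in wild-type livers. Both belong to a family of close copies and are uncertain. The 6 defining hepatocyte markers summed to 24238 to 38623 FPKM in knockout livers and 37335 to 61915 FPKM in wild-type livers. The part of the hepatocyte share in the lower levels of other hepatocyte genes was not tested. With wild-type mouse 4 left out, 12 of the list passed as deposited and 8 after scaling (all genes 1.90% and 1.74%). Without wild-type mice 1 and 2 its median was -0.34 as deposited and -0.42 after scaling.

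Bile acid genes were lower in 25 of 26 cases as deposited and 26 after scaling (-0.61 as deposited and -0.92 after scaling), and in 7 the genotypes did not overlap, both ways (all genes 0.612% as deposited and 2.41% after scaling). Cyp7a1, the cholesterol 7-alpha-hydroxylase that opens the classic bile acid pathway, stood at 0, 0.523, 0.598 and 0.30 FPKM in knockout mice 1 to 4, against 5.75, 10.2, 3.03 and 0.843 FPKM in wild-type mice 1 to 4. It was listed at 0 in knockout mouse 1, and wild-type mouse 4 came nearest to the knockout mice. Cyp27a1, which starts the acidic pathway, stood at 54.7, 61.6, 49.6 and 54.4 FPKM in the knockout mice and 113, 93.9, 97 and 88.6 FPKM in the wild-type mice, and the adjusted p was 0.107 as deposited and 0.23 after scaling (limma). Cyp7b1, of the same pathway, averaged 5.96 ± 1.39 FPKM in knockout livers and 10.5 ± 3.28 FPKM in wild-type livers. Without wild-type mouse 4, 14 of the list passed as deposited and 12 after scaling (all genes 1.90% and 1.74%). Without wild-type mice 1 and 2 the median was -0.39 as deposited and -0.47 after scaling.

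Amino acid catabolism and the urea cycle followed, with 30 of 32 genes lower both ways and medians of -0.73 as deposited and -1.05 after scaling. Cps1, the entry enzyme of the urea cycle, stood at 227, 367, 240.5 and 266 FPKM in the knockout mice and 651, 521, 335 and 323 FPKM in the wild-type mice, with knockout mouse 2 above wild-type mice 3 and 4. Cth, which makes cysteine, stood at 56.5, 96, 47.8 and 65.9 FPKM in the knockout mice and 224, 191, 95.4 and 107 FPKM in the wild-type mice. Glul, the glutamine synthetase of the last row of cells around the central vein, stood at 39.8, 34, 45.4 and 17.9 FPKM in the knockout mice and 19.4, 23.3, 22.1 and 34 FPKM in the wild-type mice , where the genotypes overlapped (limma adjusted p = 0.478 as deposited and 0.915 after scaling). By mouse after scaling, the list lay at -0.54, 0.16, -0.98 and -0.70 log2 units in the knockout and 1.21, 1.20, -0.07 and -0.29 in the wild type. Wild-type mice 1 and 2 stood far above the other 6 mice, and without them the median was -0.31 in place of -1.05.

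**Figure D5:**
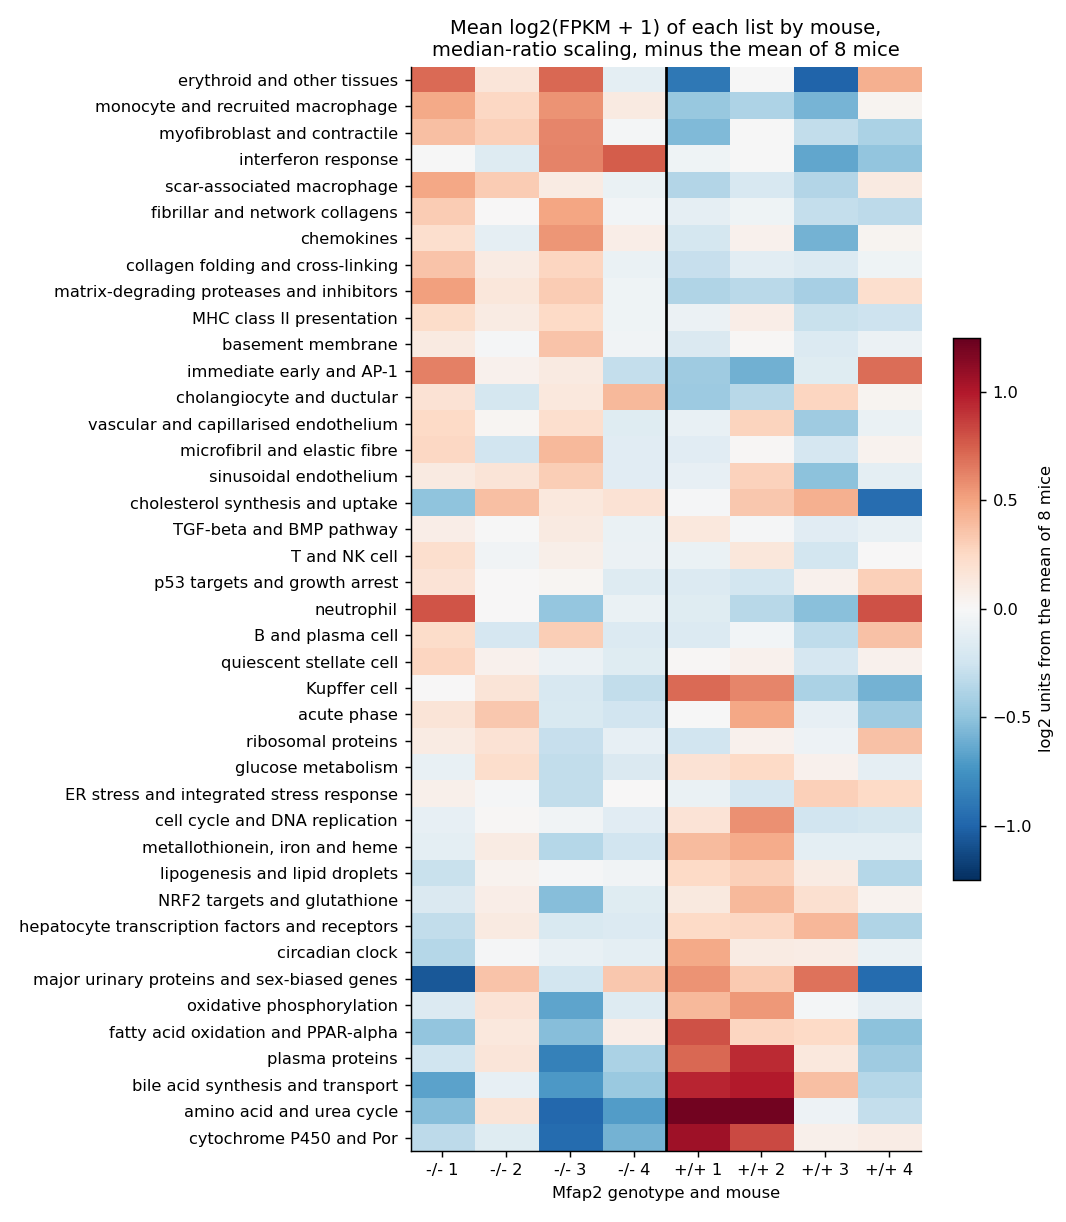
Colour gives the mean log2(FPKM + 1) of each of 41 lists in each mouse after median-ratio scaling, minus the mean of the 8 mice, with Mfap2-/- mice 1 to 4 left of the line and Mfap2+/+ mice 1 to 4 right of it. The interferon list stands at 0.62 and 0.76 in knockout mice 3 and 4, and the amino acid list at 1.21 and 1.20 in wild-type mice 1 and 2.

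Plasma proteins, the secreted products of hepatocytes, were lower in 29 of 30 cases as deposited and 30 after scaling (-0.37 as deposited and -0.69 after scaling), with a smaller median than the P450 list, and a median of -0.05 and -0.14 without wild-type mice 1 and 2. Apoa1, the main protein of high-density lipoprotein, averaged 3845 ± 1156 FPKM in knockout livers and 7368 ± 2961 FPKM in wild-type livers, and Plg, plasminogen, averaged 300.5 ± 86.5 FPKM in knockout livers and 486 ± 151 FPKM in wild-type livers. To set metabolism against this output, the libraries were also scaled to the plasma protein genes. On that scale the difference of the median gene was 0.49, and the P450 list had a median of -0.44, the amino acid list -0.39 and the bile acid list -0.27. These medians lay below 0 on this scale, while that of hepatocyte transcription factors and receptors was 0.38. The part of the hepatocyte share in these lists was not tested. Of the 11928 genes tested, 94.6% were higher on this scale. Here 94 genes passed as higher and 5 as lower, counts to be read beside that share. The 5 were Bhmt (limma adjusted p = 8.8e-06), Eif4ebp3 (2.8e-05), Gm5096 (1.9e-04), Cyp7a1 (7.0e-04) and Mfap2 (0.00145). Gm5096 is a near copy of Bhmt, so these genes are not separate findings, and Mfap2 is the deleted gene. The plasma protein list was chosen with earlier results known, and this scaling takes its level as given.

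Genes of energy metabolism lay below the median gene as deposited, after scaling and on the plasma protein scale, but above 0 on the last. Fatty acid oxidation genes were lower in 22 of 30 cases as deposited and 28 after scaling, with medians of -0.15 as deposited and -0.46 after scaling, and of 0.19 when scaled to plasma proteins (all genes 0.49). Acadm, the medium-chain dehydrogenase, averaged 132 ± 21.7 FPKM in knockout livers and 168 ± 22.9 FPKM in wild-type livers. Slc27a2, a fatty acid transporter, stood at 90.3, 149.7, 108 and 133 FPKM in the knockout mice and 277, 229, 186 and 80.6 FPKM in the wild-type mice, so that wild-type mouse 4 lay lowest of the 8. Vnn1, a target of PPAR-alpha, stood at 5.11, 6.29, 8.01 and 8.53 FPKM in the knockout mice and 3.87, 3.81, 8.74 and 3.35 FPKM in the wild-type mice, with wild-type mouse 3 highest of its group. Oxidative phosphorylation subunits were lower in 21 of 28 cases as deposited and 28 after scaling (-0.14 as deposited and -0.45 after scaling, and 0.20 on the plasma protein scale). Ndufs3 and Sdhb, of complexes I and II, differed by -0.66 and -0.61 after scaling, and Atp5a1, of ATP synthase, by -0.56.

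Genes of lipid synthesis lay on both sides of the median gene. Lipogenesis and lipid droplet genes had medians of 0.11 as deposited and -0.19 after scaling, and Fasn, fatty acid synthase, averaged 8.67 ± 2.15 FPKM in knockout livers and 7.0 ± 1.52 FPKM in wild-type livers. Scd2, a stearoyl-CoA desaturase, Cd36, a fatty acid receptor, and Pparg stood higher, at 0.59, 0.44 and 0.40 after scaling. Cholesterol synthesis genes had medians of 0.43 as deposited and 0.15 after scaling, and they varied more among mice of a genotype, at -0.50, 0.38, 0.13 and 0.18 log2 units in the knockout mice and -0.02, 0.34, 0.45 and -0.95 in the wild-type mice. Wild-type mouse 4 and knockout mouse 1 were lowest. Sqle, squalene epoxidase, averaged 22.8 ± 3.99 FPKM in knockout livers and 19 ± 8.11 FPKM in wild-type livers. Mvd and Msmo1, of the same pathway, differed by 0.42 and 0.24 after scaling. Glucose genes had medians of 0.23 as deposited and -0.09 after scaling. Slc2a2, the hepatocyte glucose transporter, stood at 6.89, 8.92, 8.71 and 6.72 FPKM in the knockout mice and 14.4, 16.6, 13.3 and 9.14 FPKM in the wild-type mice, while Pkm and Hk3, glycolytic enzymes of non-hepatocytes, differed by 0.74 and 0.38 after scaling. G6pc, which releases glucose, averaged 54.1 ± 16.7 FPKM in knockout livers and 54 ± 23.7 FPKM in wild-type livers.

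Regulators of hepatocyte identity lay slightly below the median gene (0.06 as deposited and -0.25 after scaling, 20 genes). Hnf4a averaged 80.8 ± 22.9 FPKM in knockout livers and 88.8 ± 25.6 FPKM in wild-type livers. The xenobiotic receptors Nr1i2 and Nr1i3, which induce P450 genes, differed by -0.78 and -0.90 after scaling, and the glucocorticoid receptor gene Nr3c1 by 0.15, none past the threshold. NRF2 targets and glutathione genes had medians of 0.05 as deposited and -0.24 after scaling, with Gsta2 and Gsta3, glutathione transferases, at -1.09 and -0.94 after scaling. Gstm1, of the same group of enzymes, averaged 2000.3 ± 800.0 FPKM in knockout livers and 3180.0 ± 1088 FPKM in wild-type livers. Genes of major urinary proteins and sex bias varied widely within each genotype, at -1.06, 0.35, -0.23 and 0.33 log2 units in the knockout mice and 0.56, 0.33, 0.68 and -0.96 in the wild-type mice, with Elovl3 and Sult1e1 differing by -0.45 and 0.72 after scaling. Mup20, a major urinary protein that belongs to a cluster of close copies and is uncertain, stood at 790.4, 1351, 1629.8 and 2919 FPKM in the knockout mice and 2473, 2161, 2520.2 and 427 FPKM in the wild-type mice. Knockout mouse 1 and wild-type mouse 4 were low in this list as well as in the cholesterol list and high in the neutrophil list.

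The acute phase list had medians of 0.26 as deposited and -0.06 after scaling. Saa1, a serum amyloid, stood at 318, 539, 311 and 348 FPKM in the knockout mice and 110.3, 211, 324 and 57.3 FPKM in the wild-type mice, and wild-type mouse 3 lay within the knockout range. Hp, haptoglobin, averaged 3826 ± 1152 FPKM in knockout livers and 4291 ± 1339 FPKM in wild-type livers, and Steap4 averaged 53 ± 18.5 FPKM in knockout livers and 36 ± 4.47 FPKM in wild-type livers. Lcn2, the siderophore-binding lipocalin, stood at 1166, 802, 726 and 469.9 FPKM in the knockout mice and 226, 439.5, 440.2 and 937 FPKM in the wild-type mice, with wild-type mouse 4 above all knockout mice but mouse 1. Stress genes of the endoplasmic reticulum had medians of 0.21 as deposited and -0.10 after scaling. Within them Herpud1, of the degradation machinery, stood lower at -1.20, Atf3, a stress-induced repressor, stood higher at 0.63, and Creld2 and Xbp1 differed by 0.17 and -0.10 after scaling. Immediate early genes had medians of 0.50 as deposited and 0.24 after scaling, with 19 of 20 higher as deposited and 13 after scaling. They again set knockout mouse 1 and wild-type mouse 4 apart, at 0.63 and 0.69 log2 units. Without wild-type mice 1 and 2 their median was -0.07 as deposited and -0.16 after scaling, so their side rested on those mice. Egr2 averaged 2.64 ± 0.88 FPKM in knockout livers and 1.0 ± 0.715 FPKM in wild-type livers. The p53 list had medians of 0.36 as deposited and 0.09 after scaling, and of -0.05 and -0.13 without wild-type mice 1 and 2, with Sesn1 at 0.22, Plk2 at 0.39 and Tnfrsf10b at 0.23 after scaling. Cdkn1a, the cell cycle inhibitor, stood at 37.2, 34.8, 57.8 and 29.9 FPKM in the knockout mice and 15.5, 14.6, 52.3 and 43.5 FPKM in the wild-type mice, with wild-type mice 3 and 4 inside the knockout range.

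Hepcidin varied widely. Hamp, the hormone that blocks iron export and a target of BMP signalling, stood at 79.2, 238, 164 and 241 FPKM in knockout mice 1 to 4, against 2138, 848, 1088 and 42.6 FPKM in wild-type mice 1 to 4. In wild-type mice 1 to 3 it was above every knockout mouse, and wild-type mouse 4 was below all of them. The adjusted p was 0.524 as deposited and 0.554 after scaling, and 0.0111 and 0.016 without wild-type mouse 4 (limma). The metallothionein, iron and heme list had medians of 0.15 as deposited and -0.16 after scaling. Alas1, the first enzyme of heme synthesis, stood at 97.6, 175, 97.1 and 143 FPKM in the knockout mice and 293, 145, 233 and 198 FPKM in the wild-type mice, with wild-type mouse 2 inside the knockout range. Slc30a10, a manganese exporter, averaged 2.28 ± 0.30 FPKM in knockout livers and 1.15 ± 0.415 FPKM in wild-type livers. Mt1, a metallothionein, averaged 1283 ± 476 FPKM in knockout livers and 1221 ± 631 FPKM in wild-type livers.

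Cell cycle genes had medians of 0.05 as deposited and -0.15 after scaling, and wild-type mouse 2 stood highest at 0.57 log2 units after scaling. In 3 of 27, Mcm3 among them, the knockout mice lay above the wild-type mice as deposited (6.29% of all genes), and in 0 after scaling (3.00%). Mki67, a marker of cycling cells, stood at 0.63, 0.695, 1.71 and 0.862 FPKM in the knockout mice and 0.878, 1.47, 0.664 and 0.982 FPKM in the wild-type mice, and Ccnd1, cyclin D1, at 16, 20.8, 29.2 and 13.9 FPKM in the knockout mice and 29.8, 23, 15.4 and 9.72 FPKM in the wild-type mice. Mcm3, Mcm5 and Mcm7, of the replicative helicase, differed by 0.20, 0.31 and 0.13 after scaling. Ribosomal protein genes had medians of 0.24 as deposited and -0.07 after scaling, on the shift of all genes, with Rpl5, Rpl18 and Rpl37 at 0.07, 0.16 and 0.16 after scaling. Clock genes, which depend on the hour of sampling, had medians of -0.09 as deposited and -0.27 after scaling, and the knockout mice lay below the wild-type mice without overlap in 1 of 17 as deposited (0.612% of all genes) and in 4 after scaling (2.41%). Nr1d1, a repressor of the clock, stood at 12.3, 12.4, 7.53 and 12.9 FPKM in the knockout mice and 13.4, 22.6, 19.3 and 13.8 FPKM in the wild-type mice. Ciart stood at 0.257, 1.0, 2.15 and 0.70 FPKM in the knockout mice and 6.79, 1.76, 1.86 and 2.22 FPKM in the wild-type mice, and Cry1, with the opposite sign, averaged 4.26 ± 1.34 FPKM in knockout livers and 2.8 ± 1.59 FPKM in wild-type livers. The hour of sampling is not known here, and its part in these values was not tested.

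Globin transcripts, which come from red cells and their precursors, were higher on average in knockout livers, but the genotypes overlapped. Their summed FPKM were 8771, 4675, 10012 and 4140 in knockout mice 1 to 4, against 1154, 2298, 1587 and 7370 in wild-type mice 1 to 4, so wild-type mouse 4 lay among the knockout mice here too. Hbb-bs, an adult beta globin, averaged 2651 ± 1090.4 FPKM in knockout livers and 1187 ± 1112 FPKM in wild-type livers. Hbb-bt, its neighbour, averaged 1162 ± 399 FPKM in knockout livers and 495 ± 449.9 FPKM in wild-type livers. Hba-a2, an alpha globin, averaged 1445 ± 641 FPKM in knockout livers and 658 ± 603 FPKM in wild-type livers. The genotypes overlapped in Hbb-bs, Hbb-bt and Hba-a2 (limma adjusted p = 0.261, 0.204 and 0.323 as deposited, and 0.436, 0.379 and 0.473 after scaling). In both beta globins wild-type mouse 4 stood far above the other wild-type mice. Summed over 3 defining erythroid markers, knockout livers held 2491 to 6405 FPKM and wild-type livers 734 to 4703 FPKM. The list of 5 erythroid genes and the elastase Cela1 had medians of 1.42 as deposited and 1.10 after scaling. The globin copies are near identical, so their separate levels are uncertain. The part of retained blood in the monocyte, interferon and other results was not tested.

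Genes near Mfap2 were examined because linked genes can travel with a targeted allele. Within 1 Mb of Mfap2 on chromosome 4, 23 genes were tested, of which 12 were higher after scaling, with a median difference of 0.01 and no gene without overlap. Within 5 Mb the count was 71 with 0 higher and 2 lower without overlap, and within 10 Mb it was 191 with 2 higher and 8 lower, against 3.00% and 2.41% of all genes. Of these neighbours 0 passed the adjusted threshold, and the smallest adjusted p within 10 Mb was 0.312 (limma).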

How the data were processed

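RNA of 16 frozen mouse livers was sequenced from NEBNext Ultra libraries, per the labels' protocols. Reads were aligned with HISAT to mm10 and quantified with Cufflinks, per the submitters' processing notes, but the sources used here give no versions. The authors deposited FPKM per gene. The unit is not named in the file header and was taken from those tools and from the values, which differ in their totals (428142 to 478062 per library). The depth is unknown: over 28 library pairs at most 0.63% of ratios of low genes fell into a single bin, so whole reads could not be recovered, and no counting intervals are given. The p-values measure the spread between mice.

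The table of 8 libraries was analysed after log2(FPKM + 1), which understates differences of low genes, with limma 3.58.1 (trend and robust, statmod 1.5.0, R 4.3.3) on genes of mean FPKM of at least 0.5. Benjamini-Hochberg adjustment covered all 11928 genes, with a threshold of 0.05. Single values were tested by exact permutation over 70 assignments (Python 3.11.15, scipy 1.17.1). Settings were varied as given at the end of the text. The scripts were tested on simulated data. Genotypes carry the same mouse numbers, and the labels do not say whether these pair the mice. The deviations of same-numbered mice correlated at -0.43, 0.40, -0.02 and -0.23 for numbers 1 to 4, and no block was used in the main fit. These correlations cannot exclude a pairing.

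The members and gene lists were chosen with earlier results of these data known. Genes named are Mfap2, those past the threshold, per direction the 12 with the smallest p after scaling among genes of mean FPKM of at least 2 whose genotypes do not overlap both ways, 3 of each of the 41 lists by smallest p as deposited, and a fixed panel. Of the genes so named, 1 is not reported here. A further rule, likeness to Mmp13 by correlation, was not used because the genotypes form separate clusters in that gene. Sequences came from RefSeq tables of GRCm38.p6, and coordinates of genes from GENCODE on mm10.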

Additional observations from a re-analysis of the deposited data

Results flagged for a closer look

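Of the 315 groups of 4 mice formed by the genes named and the genotypes, 27 held a mouse whose gap to its nearest neighbour, divided by the range of the group, was above the critical value of Dixon's test at 95%. Chance gives this in about 1 in 20 groups, and genes of the same mouse are not independent. Knockout mouse 3 stood above the rest of its genotype in Col15a1 at 7.51 FPKM (the other 3 mice 3.66 to 4.14 FPKM), Hgf at 5.1 FPKM (the other 3 mice 2.84 to 3.16 FPKM) and Nkg7 at 3.42 FPKM (the other 3 mice 2.17 to 2.37 FPKM). The same mouse stood above the rest of its genotype also in Plxnc1 at 7.16 FPKM (the other 3 mice 2.72 to 3.03 FPKM). Knockout mouse 3 stood below the rest of its genotype in Nr1d1 at 7.53 FPKM (the other 3 mice 12.3 to 12.9 FPKM). Knockout mouse 4 stood below the rest of its genotype in Hk3 at 4.76 FPKM (the other 3 mice 8.13 to 8.73 FPKM) and Pth1r at 5.2 FPKM (the other 3 mice 6.72 to 6.95 FPKM). Knockout mouse 2 stood above the rest of its genotype in Saa1 at 539 FPKM (the other 3 mice 311 to 348 FPKM). Wild-type mouse 4 stood above the rest of its genotype in Coro1a at 29.8 FPKM (the other 3 mice 19.1 to 20.7 FPKM), Fbn1 at 1.61 FPKM (the other 3 mice 0.709 to 0.86 FPKM) and Hbb-bs at 2842 FPKM (the other 3 mice 497 to 838 FPKM). The same mouse stood above the rest of its genotype also in Hbb-bt at 1165 FPKM (the other 3 mice 226 to 348 FPKM), Il1rn at 34.6 FPKM (the other 3 mice 13.8 to 14.9 FPKM) and Mmp9 at 2.16 FPKM (the other 3 mice 0.511 to 0.596 FPKM). The same mouse stood above the rest of its genotype also in Pkm at 119 FPKM (the other 3 mice 49.99 to 60.6 FPKM), Plau at 5.61 FPKM (the other 3 mice 2.36 to 2.77 FPKM) and Plk2 at 11.1 FPKM (the other 3 mice 3.88 to 4.99 FPKM). The same mouse stood above the rest of its genotype also in Rpl37 at 161 FPKM (the other 3 mice 82.9 to 93.2 FPKM), Smad6 at 3.14 FPKM (the other 3 mice 2.29 to 2.4 FPKM) and Tgfbi at 32.8 FPKM (the other 3 mice 21.7 to 23 FPKM). Wild-type mouse 4 stood below the rest of its genotype in Gsta3 at 433 FPKM (the other 3 mice 660.1 to 693 FPKM). Wild-type mouse 3 stood above the rest of its genotype in Muc1 at 1.35 FPKM (the other 3 mice 0.242 to 0.393 FPKM), Sqle at 31.1 FPKM (the other 3 mice 14.4 to 15.7 FPKM) and Vnn1 at 8.74 FPKM (the other 3 mice 3.35 to 3.87 FPKM). Wild-type mouse 2 stood above the rest of its genotype in Eif4ebp3 at 37.2 FPKM (the other 3 mice 10.1 to 13.2 FPKM). Wild-type mouse 2 stood below the rest of its genotype in Abca6 at 9.15 FPKM (the other 3 mice 12.7 to 13 FPKM). Wild-type mouse 1 stood above the rest of its genotype in Ciart at 6.79 FPKM (the other 3 mice 1.76 to 2.22 FPKM). Wild-type mouse 4 held more of these values than any other mouse.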

How the results depend on the processing

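Of 3305 gene values set against those as deposited, under alternatives that do not combine scaling with a left-out single mouse, 0 changed sign as a called value, 5 lost a call, all of Mmp13, and 165 gained one, most of them without wild-type mouse 4. The scaled calls lost when single mice were left out are given with Mmp13 above. Of 861 list medians 67 moved by more than the spread between mice. Against 1 gene called higher as deposited, 0 were called with the median ratio over tested genes (chosen after seeing the data), with quantile normalization (699 at an unadjusted p under 0.05 with either), with the replicate block (1601) and without knockout mice 3 and 4 (643). Scaling to plasma proteins called 94 higher and 5 lower, with 94.6% of all tested genes higher on that scale. Leaving out a mouse gave 1 to 1238 higher and 0 to 227 lower genes as deposited, and 0 to 107 higher and 0 to 208 lower after scaling. The highest counts came without wild-type mouse 4. Without knockout mouse 2 there were 28 higher and 4 lower genes as deposited. The lower calls were 1 with median-ratio scaling and quantile normalization (Mfap2), 1 with no trend or robust fit (Eif4ebp3), 2 with a pseudocount of 0.1 (both genes) and 1 without wild-type mice 1 and 2. After scaling, the median ratio over tested genes and the replicate block left 0 higher and 0 lower genes (699 and 564, and 516 and 692, at an unadjusted p under 0.05). The labels do not say whether the mouse numbers pair the mice, and in both versions the block ended every call. Without a mouse the Mfap2 difference ran from -1.81 to -1.09 FPKM and the albumin difference from -15638 to -9741 FPKM. Without a knockout mouse their exact permutation p was 0.0571 or more. Median-ratio scaling gave -20989.9 FPKM for albumin (exact permutation p = 0.0571). The cause of these changes was not tested.

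Limits are the 4 mice a side, unknown depth, and FPKM as shares of a library whose makeup differs. Lists near the median gene change side with the scaling, among them Kupffer cell, acute phase, lipogenesis, glucose, ribosomal protein and cell cycle genes. Low genes have compressed differences.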
